A study of Caenorhabditis elegans with 12 samples.

Results

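The 41 genes described here build and run the sensory cilium of Caenorhabditis elegans. They were taken as a list by function, and each was found by its WormBase identifier in the WBcel235 annotation. They are 41 of the 20362 genes counted in every library, and all 41 were among the 12062 genes tested. By role they comprise the transcription factor daf-19, 13 subunits of intraflagellar transport complex B (IFT-B), 4 of complex A (IFT-A), 6 motor genes, 6 subunits of the BBSome, 6 transition zone genes and 5 other cilium genes.

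In the worm, cilia are borne by sensory neurons and sit at the tips of their dendrites. Intraflagellar transport carries building material along the ciliary microtubules: kinesin motors move IFT-B and IFT-A particles outward, and dynein brings them back. The BBSome helps to hold these particles together, and the transition zone at the cilium base acts as a gate. DAF-19, an RFX-type transcription factor, acts on many of these genes through a promoter element called the X-box.

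Whole embryos of the wild-type strain N2 and of MLC1800, a strain that lacks the miR-51 family (hereafter null), were sequenced at the 190-cell, bean and 2-fold stages. MLC1800 combines the deletions nDf67 and nDf58 with the allele n4100, and it is kept alive by lucEx1057, an extrachromosomal array that carries miR-54C with green fluorescent markers; how embryos without the array were picked is not given in the sources used here. Every library was made from 50 embryos, collected at the 2-cell stage from worms grown at 20 °C and left to develop in buffer. There were 2 libraries for each of the 6 groups. The study calls the duplicates independent, but neither it nor the labels say whether they came from separate cultures, so the p-values measure only the spread between these libraries.

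The 3′ end method used here yields reads from the end of each transcript, so CPM (the reads of a gene per 1000000 assigned reads, with scaled library sizes) were compared between genes without a correction for length. Assigned reads ranged from 11081 to 9558104 per library. The number of distinct molecules behind them, estimated from the share of weakly expressed genes without a read, was 108775 to 250705 in 11 libraries and 10132 in null 190-cell replicate 1, which stood apart. The floor used below is the CPM of 3 molecules in a group's pooled libraries (7.49 to 21.4 CPM, covering counting error only). It was highest in the null 190-cell group. A group mean weights its libraries equally, so a mean just above the floor can rest on fewer than 3 molecules. In null 190-cell, for example, che-10 had a mean of 25.4 CPM from about 0.91 and 1.2 molecules. In bulk embryos, fewer cells of a type and less RNA per cell cannot be told apart.

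Most of the 41 genes were first read in every library of a group at 2-fold: 10 of the 41 had reads in both wild-type bean libraries and 41 in both wild-type 2-fold libraries, with 14 and 35 in null. Reads were found for 14 and 11 of them in the wild-type 190-cell libraries and for 12 and 21 in the wild-type bean libraries. In null embryos, 3 and 7 had reads at 190-cell, 18 and 15 at bean, and 38 and 37 at 2-fold. The share of all tested genes with reads changed less, from 63.6% and 74.5% in wild-type bean to 85.3% and 87.1% in wild-type 2-fold, and from 72.5% and 66.4% to 71.4% and 76.3% in null.

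The summed level of the 41 genes was 170 and 209 CPM in wild-type 190-cell, 406 and 521 CPM in wild-type bean, and 1871 and 1324 CPM in wild-type 2-fold. The null sums were 163 and 215 CPM at 190-cell, 531 and 517 CPM at bean, and 1961 and 2019 CPM at 2-fold. The libraries of the 3 stages did not overlap in either genotype. A group mean above the floor was reached by 7 of the 41 genes in wild-type 190-cell, 9 in wild-type bean and 39 in wild-type 2-fold, against 56.3%, 57.1% and 69.8% of all genes tested. In null embryos the numbers were 5, 7 and 33, against 35%, 55.4% and 55.1%.

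**Figure D1:**
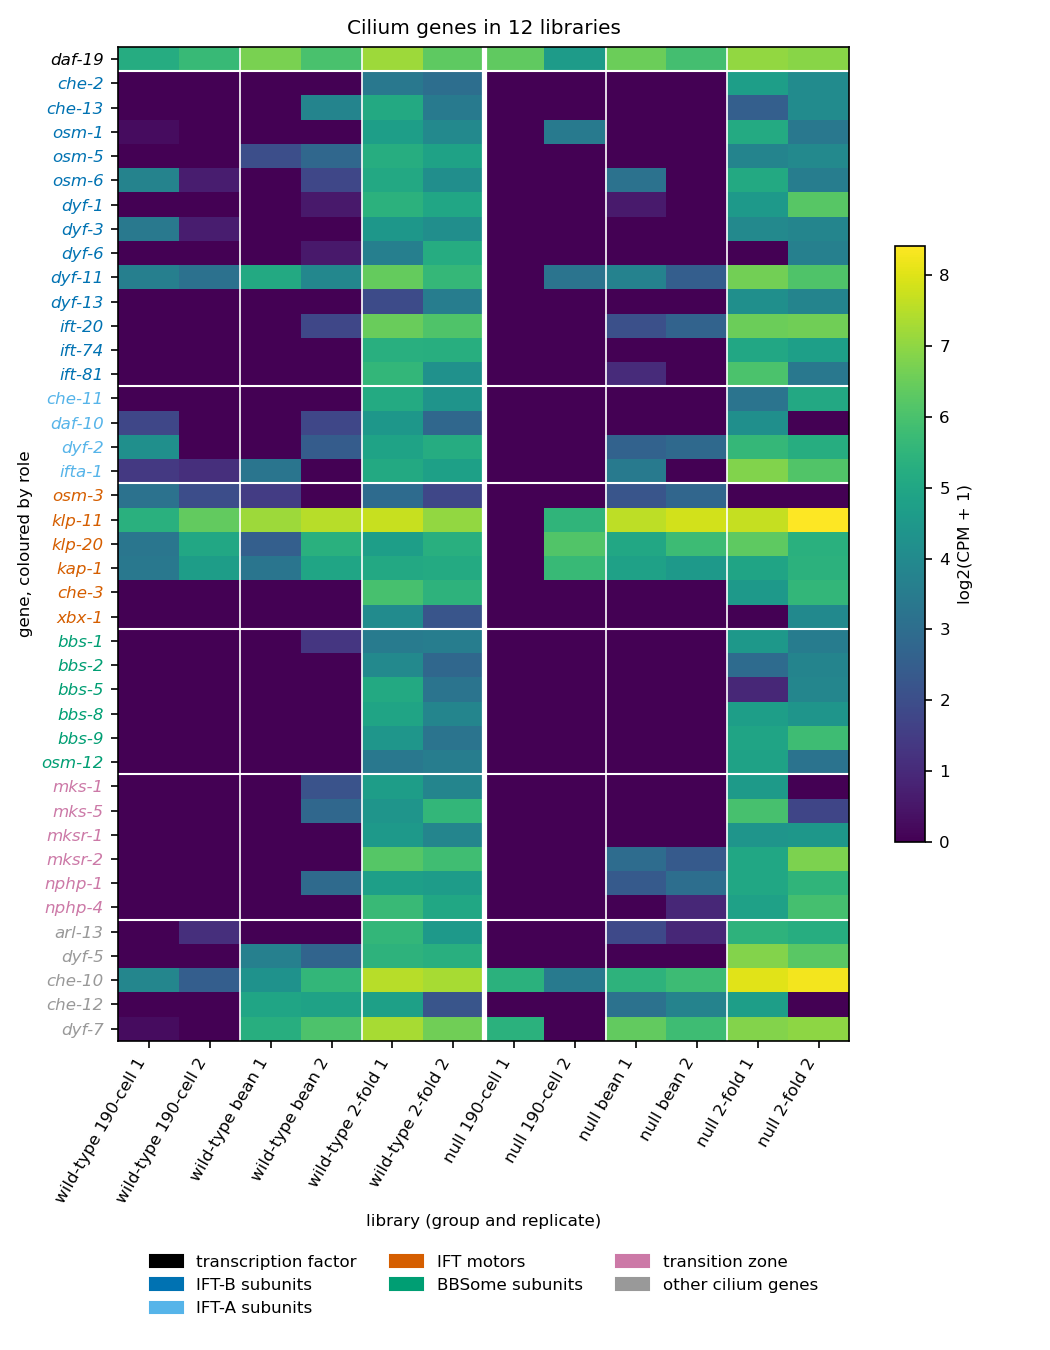
The level of each of the 41 cilium genes (rows, coloured by role) in each of the 12 libraries (columns), as log2(CPM + 1); dark purple is 0 reads. The BBSome rows are dark until 2-fold in both genotypes but for bbs-1 in 1 bean library, while daf-19, klp-11 and che-10 have reads at all 3 stages.

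From bean to 2-fold, 5 of the 41 genes rose in wild-type (adjusted p under 0.05 in edgeR's quasi-likelihood test, with 3.16% of all tested genes called higher) and none fell (1.19% called lower). They were ift-20, che-3, mksr-2, nphp-4 and che-10. At an unadjusted p under 0.05 the number was 18, against 10.4% of all genes. Both 2-fold libraries lay above both bean libraries for 36 of the 41, where 31.5% of all genes did so.

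In null embryos 9 of the 41 rose from bean to 2-fold, with 4.48% of all tested genes called higher, and none fell (4.44% called lower). They were dyf-1, dyf-11, ift-20, ift-74, che-3, bbs-9, mks-5, dyf-5 and che-10. At an unadjusted p under 0.05 the number was 28, against 11.3% of all genes. The 2-fold libraries lay above the bean libraries for 33, where 24.2% of all genes did so.

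The genes ift-20, che-3 and che-10 were called in both genotypes, and 39 of the 41 had a positive fitted change in both. The shares of all tested genes for these counts are not given, and for many members the sign rests on a group without reads. The median fitted log2 change was 5.88 in wild-type and 7.44 in null, against 0.19 and 0.00 over all genes tested, but these medians depend on how a group without reads is treated. Among genes with reads in both groups the median was 2.82 over 23 genes in wild-type and 2.79 over 18 in null. With every group mean below its floor raised to the floor, the median log2 change was 1.32 in wild-type and 1.13 in null. Over all genes such a median mostly reflects the floors themselves and is not given.

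Most of these calls were lost in at least 1 of the 12 fits that left out 1 library. The spread was fitted over all 6 groups, so leaving out a library outside the step could also move a p-value. In wild-type, mksr-2 kept its call whichever library was left out. Without wild-type bean replicate 1 the adjusted p was 0.0832 for ift-20, 0.134 for che-3, 0.159 for nphp-4 and 0.261 for che-10, and without wild-type 2-fold replicate 1 it was 0.0958, 0.199, 0.203 and 0.160. Without wild-type bean replicate 2 che-3 and nphp-4 were lost (0.124 and 0.145), and without null 2-fold replicate 2 che-3, nphp-4 and che-10 (0.0585, 0.0813 and 0.0535). In null, dyf-5 was never lost and che-10 was lost without null 2-fold replicate 2 alone (0.0612). The other 7 (dyf-1, dyf-11, ift-20, ift-74, che-3, bbs-9 and mks-5) were each lost in 3 to 6 of the 12 omissions, all 7 without wild-type 2-fold replicate 1 (0.0575 to 0.114) and 6 of them without null 2-fold replicate 2 (0.0635 to 0.189).

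**Figure D2:**
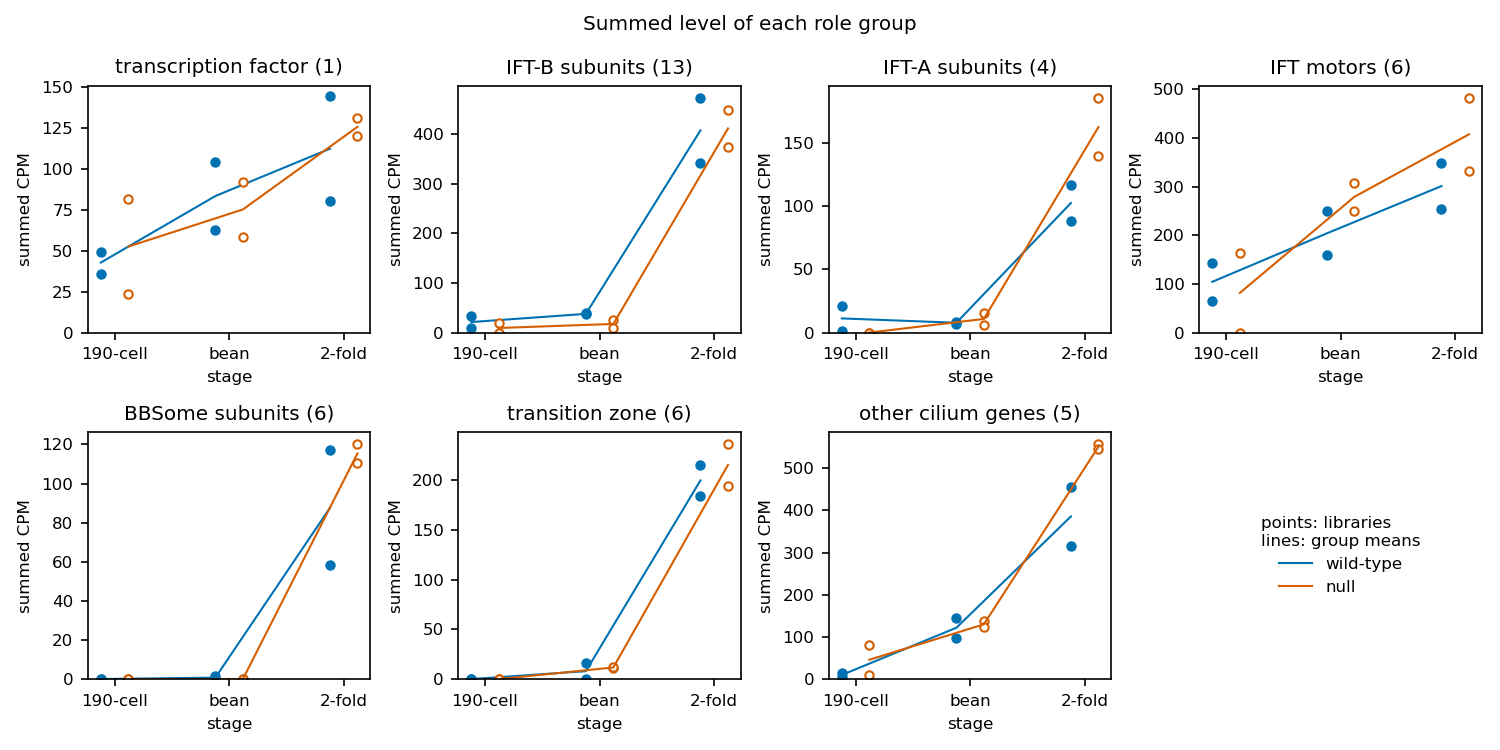
Summed CPM of each role group (number of genes in brackets) at 190-cell, bean and 2-fold; filled points are wild-type libraries, open points are null libraries, and lines join the group means. The BBSome and transition zone sums are at most 15.9 CPM until 2-fold, while those of the motors and daf-19 are already above 0 at 190-cell in most libraries.

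The transcription factor daf-19 had reads in all 12 libraries. Its level was 36.0 and 49.5 CPM in wild-type 190-cell, 104.1 and 62.8 CPM in wild-type bean, and 145 and 80.1 CPM in wild-type 2-fold. The null libraries had 81.5 (2 reads in the shallow library) and 23.6 CPM at 190-cell, 91.9 and 58.6 CPM at bean, and 131 and 120 CPM at 2-fold. The wild-type bean and 2-fold libraries overlapped, and the null ones did not. No step between stages passed the test: the log2 change was 0.97 ± 0.62 (SE) from 190-cell to bean and 0.44 ± 0.62 from bean to 2-fold in wild-type (adjusted p = 0.569 and 0.819), and 0.74 ± 0.62 from bean to 2-fold in null (adjusted p = 0.487).

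The IFT-B subunits summed to 33.6 and 8.95 CPM in wild-type 190-cell, 36.8 and 38.9 CPM in wild-type bean, and 474 and 342 CPM in wild-type 2-fold. In null embryos they summed to 0 and 18.5 CPM at 190-cell, 24.8 and 10.1 CPM at bean, and 449 and 375 CPM at 2-fold. The 2-fold libraries of each genotype lay well above all earlier ones. From bean to 2-fold, 1 of the 13 was called higher in wild-type and 4 in null.

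The strongest IFT-B subunit at 2-fold was ift-20, a small subunit whose vertebrate counterpart also works at the Golgi. It had no reads at 190-cell in either genotype, 0 and 2.49 CPM in wild-type bean and 89.8 and 68.0 CPM in wild-type 2-fold. Null embryos had 3.17 and 5.37 CPM at bean and 90.7 and 94.3 CPM at 2-fold. The bean and 2-fold libraries were far apart in both genotypes. ift-20 rose by a log2 change of 5.88 ± 1.40 (adjusted p = 0.0109) in wild-type and 4.40 ± 1.26 (adjusted p = 0.0257) in null. Both bean means were below the floor (1.25 CPM for wild-type, 4.27 CPM for null), and with the bean group at its floor the 2-fold mean was 9.29-fold higher in wild-type and 9.86-fold in null. Its exons overlap spe-5 on the other strand, and whether the counting used strand is not given in the sources used here.

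dyf-11, the worm IFT54 and one of the few IFT-B genes read before bean, had 11.3 and 7.76 CPM in wild-type 190-cell, 33.7 and 13.95 CPM in wild-type bean, and 85.0 and 47.3 CPM in wild-type 2-fold. Null embryos had 0 and 8.43 CPM at 190-cell, 12.2 and 4.70 CPM at bean, and 96.5 and 68.0 CPM at 2-fold. The stages did not overlap in wild-type, where the step to 2-fold was not called, and dyf-11 rose in null by a log2 change of 3.30 ± 1.06 (adjusted p = 0.0482).

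ift-74, whose product pairs with IFT-81 to bind tubulin, had no reads before 2-fold in any of the 8 earlier libraries and then 38.7 and 37.6 CPM in wild-type and 32.2 and 25.6 CPM in null. That is at least 4.49-fold above the bean floor in wild-type and at least 3.08-fold in null, where it was called higher (adjusted p = 0.0338). dyf-1, the worm IFT70, had 1 read in 1 bean library of each genotype. At 2-fold it had 40.96 and 30.3 CPM in wild-type and 21.9 and 74.2 CPM in null, where it was called higher (adjusted p = 0.0347).

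The other 9 IFT-B genes were che-2 (IFT80), che-13 (IFT57), osm-1 (IFT172), osm-5 (IFT88), osm-6 (IFT52), dyf-3 (CLUAP1), dyf-6 (IFT46), dyf-13 (IFT56) and ift-81. None was called from bean to 2-fold in either genotype. Their mean levels at 2-fold ran from 6.86 CPM (dyf-13) to 32.6 CPM (ift-81) in wild-type and from 5.84 CPM (dyf-6) to 37.0 CPM (ift-81) in null. At that level a library holds only a few molecules: ift-81 had 64.8 CPM in one null 2-fold library and 9.26 CPM in the other. At 2-fold osm-5 had 36.5 and 27.9 CPM in wild-type and 12.95 and 14.5 CPM in null, and its null libraries were lower than its wild-type ones. che-2 had 9.38 and 7.28 CPM in wild-type and 25.01 and 15.8 CPM in null, with the null libraries higher. osm-1 had 25 and 14.6 CPM in wild-type and 34.4 and 9.39 CPM in null, overlapping. The same held for osm-6, with 32.4 and 16.99 CPM against 33.5 and 10.9 CPM, and for ift-81, with 47.0 and 18.2 CPM in wild-type. che-13 had 33.9 and 9.71 CPM in wild-type and 4.91 and 15.6 CPM in null. dyf-6 had 11.5 and 36.4 CPM in wild-type and 0 and 11.7 CPM in null, and its exons overlap rme-4 on the same strand. Before 2-fold these 7 genes reached at most 12.95 CPM in a library, the highest being che-13 in wild-type bean replicate 2, and most libraries had no reads. osm-6 and dyf-3 had 12.6 and 9.47 CPM in wild-type 190-cell replicate 1, each close to 1 or 2 estimated molecules, and 0.597 CPM (1 read) in replicate 2.

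The IFT-A subunits che-11 (IFT140), daf-10 (IFT122), dyf-2 (IFT144) and ifta-1 (IFT121) summed to 21.2 and 1.19 CPM in wild-type 190-cell, 8.58 and 6.97 CPM in wild-type bean, and 117 and 88.6 CPM in wild-type 2-fold. The null sums were 0 at 190-cell, 15.3 and 6.26 CPM at bean and 186 and 139.4 CPM at 2-fold. The bean and 2-fold sums were clearly separate, and none of the 4 genes was called alone. At 2-fold che-11 had 34.1 and 19.4 CPM in wild-type and 8.49 and 33.1 CPM in null, and no reads earlier. dyf-2 had 28.1 and 36.4 CPM in wild-type and 47.8 and 36.8 CPM in null, with 17.1 CPM in wild-type 190-cell replicate 1 and at most 6.26 CPM in the other earlier libraries. daf-10 had 21.1 and 6.07 CPM in wild-type and 17.4 and 0 CPM in null. The most abundant in null was ifta-1, with 112 and 69.5 CPM at 2-fold against 33.2 and 26.7 CPM in wild-type. The null and wild-type libraries did not overlap, and the difference did not pass the test (log2 difference 1.59 ± 1.58, adjusted p = 0.834).

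The motor genes differed in when they were first read. The 3 subunits of heterotrimeric kinesin-II, klp-11 and klp-20 (the motor subunits) and kap-1 (the associated protein), were present from the 190-cell stage. klp-11 was the strongest of all 41 genes at bean in both genotypes. It had 39.3 and 83.5 CPM in wild-type 190-cell, 143 and 180 CPM in wild-type bean, and 206 and 132 CPM in wild-type 2-fold. In null embryos klp-11 had 0 (in the shallow library) and 44.4 CPM at 190-cell, 189 and 226 CPM at bean, and 202 and 340 CPM at 2-fold. The 190-cell libraries lay below the bean libraries in both genotypes, and the bean and 2-fold libraries overlapped.

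From 190-cell to bean, klp-11 rose in null by a log2 change of 2.42 ± 0.65 (adjusted p = 0.0215). The call rested on single libraries: without null 190-cell replicate 2 the adjusted p was 0.284, and without null bean replicate 2 it was 0.0656. The same step in wild-type was 1.40 ± 0.54 (adjusted p = 0.178). klp-20 and kap-1 had mean levels of 16.9 to 59.4 CPM in all 6 groups and no called step. klp-20 had 8.86 and 32.2 CPM in wild-type 190-cell, 4.90 and 39.4 CPM in wild-type bean, and 25.5 and 38.8 CPM in wild-type 2-fold, with 0 and 68.5, 31.7 and 53.4, and 79.0 and 39.7 CPM in null. kap-1 had 9.27 and 24.5, 8.58 and 29.9, and 33.1 and 34.0 CPM at the same stages in wild-type and 0 and 50.0, 26.9 and 22.4, and 29.0 and 41.7 CPM in null. The 190-cell and bean libraries of both genes overlapped in each genotype. The exons of klp-11 and klp-20 overlap other genes on the same strand, F20C5.11 for klp-11 and F40G9.17 and hpo-38 for klp-20.

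The motor of the return trip was read at 2-fold alone. che-3, the dynein-2 heavy chain, had no reads in any 190-cell or bean library of either genotype. At 2-fold it had 61.2 and 42.5 CPM in wild-type and 22.3 and 46.3 CPM in null. All 4 of these libraries were above 0, and the rise was at least 6.11-fold in wild-type (adjusted p = 0.0286) and at least 3.66-fold in null (adjusted p = 0.0175). xbx-1, the dynein light intermediate chain, also had no reads before 2-fold, with 15.6 and 3.64 CPM in wild-type 2-fold and 0 and 14.8 CPM in null 2-fold.

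osm-3, the second kinesin of worm cilia, which extends the outer segment, was low throughout. It had 8.03 and 2.98 CPM in wild-type 190-cell, 1.84 and 0 CPM in wild-type bean, and 6.74 and 2.43 CPM in wild-type 2-fold. In null embryos it had reads at bean alone, 3.70 and 5.81 CPM, and none at 190-cell or 2-fold. Every group mean of osm-3 was below the floor, so neither stage nor genotype differences were detectable at this depth; the comparison of the genotypes at 2-fold gave adjusted p = 0.536, and that of their steps from bean to 2-fold gave 0.807. Its exons overlap algn-14 on the same strand and K09B3.1 on the other.

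The 6 BBSome genes, bbs-1, bbs-2, bbs-5, bbs-8, bbs-9 and osm-12 (the worm BBS7), were read almost solely at 2-fold. None had a read in any of the 4 190-cell libraries, and the 4 bean libraries held 3 reads in all, from bbs-1 in 1 wild-type library. At 2-fold the group summed to 117 and 58.3 CPM in wild-type and 111 and 120 CPM in null, with reads from all 6 genes in all 4 libraries. Single genes were low, with group means of 10.2 to 21.2 CPM in wild-type and 7.15 to 42.2 CPM in null.

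Of the BBSome genes bbs-9 alone passed the test. It had 20.2 and 8.50 CPM in wild-type 2-fold and 29.0 and 55.3 CPM in null 2-fold, so that the null libraries were higher. In null the rise was at least 4.49-fold (adjusted p = 0.0366), and in wild-type the 2-fold mean was at least 1.69-fold above the bean floor without a call. bbs-8 had 29.0 and 13.4 CPM in wild-type 2-fold and 25.01 and 19.7 CPM in null 2-fold. bbs-5 had 33.7 and 8.50 CPM against 0.893 and 13.4 CPM, and its exons overlap inpp-4B on the same strand. Neither separated the genotypes.

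The transition zone genes likewise had no reads at 190-cell in either genotype. They summed to 0 and 15.9 CPM in wild-type bean, 11.1 and 12.3 CPM in null bean, 216 and 185 CPM in wild-type 2-fold, and 195 and 236 CPM in null 2-fold. In wild-type 2 of the 6 were called, and in null 1. The largest share came from mksr-2, which with mks-1 and mksr-1 encodes the worm B9-domain proteins.

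mksr-2 (chromosome IV, 2304292 to 2306547 on the minus strand, WBcel235) had no reads in either wild-type bean library and 72.2 and 55.8 CPM in wild-type 2-fold. In null embryos it had 6.87 and 4.25 CPM at bean and 31.3 and 108 CPM at 2-fold. Bean and 2-fold were separate in both genotypes, and the 2 null 2-fold libraries enclosed the wild-type ones. The rise was at least 7.54-fold in wild-type (adjusted p = 0.00374), and it kept its call in each of the 12 fits that left out 1 library. In null the log2 change of 3.65 ± 1.36 was not called (adjusted p = 0.0983).

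nphp-4, the worm nephrocystin-4, had no reads in wild-type bean and 51.0 and 31.6 CPM in wild-type 2-fold, a rise of at least 4.86-fold (adjusted p = 0.0357). In null it had 0 and 0.894 CPM at bean and 27.2 and 60.6 CPM at 2-fold, close to the threshold (adjusted p = 0.0562) and called in all 7 other settings that kept every library. Its exons overlap col-158 on the other strand. mks-5, the worm RPGRIP1L and a scaffold for the other transition zone proteins, had 19.7 and 46.1 CPM in wild-type 2-fold, with 62.1 CPM in null 2-fold replicate 1 and 2.42 CPM in replicate 2. Its call in null (adjusted p = 0.0487) was lost without replicate 1 (adjusted p = 0.295). nphp-1, the worm nephrocystin-1, had 0 and 6.48 CPM in wild-type bean, 26.2 and 24.3 CPM in wild-type 2-fold, 4.22 and 7.15 CPM in null bean, and 31.3 and 44.1 CPM in null 2-fold. mksr-1 had no reads before 2-fold and then 21.9 and 13.4 CPM in wild-type and 20.1 and 21.1 CPM in null. All 2-fold libraries of both genes lay above their bean libraries. The genes mks-1, mksr-1 and nphp-1 had group means of 11.4 to 37.7 CPM at 2-fold and no call.

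Among the other cilium genes, che-10, which encodes rootletin of the ciliary rootlet, had the highest mean of all 41 genes in null 2-fold (285 CPM, against 271 CPM for klp-11), and in wild-type 2-fold the means of both genes were nearly equal (170 and 169 CPM). che-10 had 13.4 and 4.77 CPM in wild-type 190-cell, 18.4 and 46.8 CPM in wild-type bean, and 183 and 157 CPM in wild-type 2-fold. In null embryos it had 40.8 (1 read in the shallow library) and 10.1 CPM at 190-cell, 42.8 and 53.9 CPM at bean, and 261 and 309 CPM at 2-fold. The stages did not overlap in either genotype. From bean to 2-fold che-10 rose 5.21-fold in wild-type (log2 change 2.38 ± 0.64, adjusted p = 0.0261) and 5.90-fold in null (2.56 ± 0.64, adjusted p = 0.00963).

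dyf-7, a zona pellucida-domain protein that anchors the dendrite tips of sensory neurons while the cell bodies move away, was read earlier. Wild-type 190-cell replicate 1 held 1 read of dyf-7 and replicate 2 none, and wild-type bean had 38.0 and 65.3 CPM. Wild-type 2-fold had 156 and 95.9 CPM. In null embryos dyf-7 had 1 read in the shallow 190-cell library (40.8 CPM) and none in the other, 84.0 and 55.2 CPM at bean, and 114 and 124 CPM at 2-fold. The bean libraries of each genotype lay above the 190-cell libraries, and the 2-fold libraries lay above the bean libraries.

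From 190-cell to bean, dyf-7 and dyf-5 were the 2 members that rose in wild-type, with 4.18% of all tested genes called higher, and none fell (0.846% called lower). For dyf-7 the fitted log2 change was 8.09 ± 1.23 (adjusted p = 4.704e-05), and the call held in each fit that left out 1 library. The 190-cell mean of dyf-7 was below the floor, and with it at the floor the bean mean was 6.40-fold higher. In null, dyf-7 and klp-11 were the 2 members called, with 4.63% of all tested genes called higher and 0.688% lower. The null change of dyf-7 (6.45 ± 1.59, adjusted p = 0.0116) depended on null 190-cell replicate 2, without which the adjusted p was 1, and was also lost with counts scaled to molecules (adjusted p = 0.1045). With null 190-cell at its floor the bean mean of dyf-7 was 3.25-fold higher. The step of dyf-7 from bean to 2-fold was not called in either genotype (1.29 ± 0.78 in wild-type and 0.78 ± 0.77 in null).

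dyf-5, a MAK-type kinase that limits cilium length, had no reads at 190-cell in either genotype. It had 11.6 and 5.48 CPM in wild-type bean, about 1.3 estimated molecules in each library, and 0 in both null bean libraries. At 2-fold it had 42.3 and 38.8 CPM in wild-type and 115 and 75.8 CPM in null. The 2-fold libraries were all above the bean libraries, and the null ones were above the wild-type ones at 2-fold. In null the step was at least 10.2-fold (adjusted p = 0.000691), a call kept in each fit that left out 1 library. In wild-type the call from 190-cell to bean (adjusted p = 0.0177) was lost without wild-type 190-cell replicate 1 (adjusted p = 0.164), with only the compared groups fitted (0.465) and with counts scaled to molecules (0.563), and the bean mean was no more than 1.06-fold above the 190-cell floor.

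che-12, a HEAT-repeat protein found in a subset of sensory cilia, ran against the order of the others in wild-type. It had no reads at 190-cell, 30.0 and 27.9 CPM in wild-type bean, and 26.7 and 3.64 CPM in wild-type 2-fold. Null embryos had 7.92 and 12.5 CPM at bean and 25.5 and 0 CPM at 2-fold. Both wild-type bean libraries lay above the 2-fold ones, but the change was not called (log2 −0.91 ± 1.98). arl-13, a small GTPase of the ciliary membrane, had at most 2.64 CPM at bean and 190-cell. It had 46.6 and 21.9 CPM in wild-type 2-fold and 42.0 and 36.6 CPM in null 2-fold, not called in either genotype (adjusted p = 0.0535 and 0.177). Of the 7 other settings with every library, the step of arl-13 was called in 7 in wild-type and in 3 in null. Its exons overlap rla-1, a ribosomal protein gene, on the other strand.

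Taking the highest of the 3 stage means, 39 of the 41 genes were highest at 2-fold in wild-type, where 44% of all tested genes were. The exceptions were che-12, whose higher mean at bean was not a called difference, and osm-3, whose means were all below the floor. In null it was 40 of 41, where 42.6% of all tested genes were highest at 2-fold, the exception again being osm-3.

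Loss of the miR-51 family was then compared at each stage. The paper reports that embryos lacking the family can arrest during elongation. Whether null 2-fold embryos were matched to wild-type by form or by time is not given in the sources used here. Genotype and progress of development therefore cannot be told apart at that stage. No member was called at 190-cell, bean or 2-fold, where 0.0663%, 0.0497% and 0.39% of all tested genes were called higher in null and 0.149%, 0.0166% and 1.77% lower. At an unadjusted p under 0.05, edgeR had 1 member higher and none lower at 190-cell (0.962% and 6.13% of all genes), 1 higher and 4 lower at bean (3.71% and 3.56%), and none at 2-fold (2.85% and 7.88%). Averaged over the stages no member was called either, with 0.929% of all genes called higher and 3.59% lower, and none passed at an unadjusted p under 0.05 (3.72% and 12.5% of all genes). Only 7 of the 41 had reads in all 6 groups; for the others a group without reads entered the average, so a missing call says little. DESeq2 called none at 190-cell or 2-fold, dyf-5 lower in null at bean, and mksr-2 on average.

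At 2-fold, where nearly all the genes were read, the fitted log2 difference (null minus wild-type) was within 1 unit for 31 of the 41, above 1 for 5 and below −1 for 5. The median was 0.12, against −0.14 over all genes tested. It moved to 0.54 without wild-type 2-fold replicate 1 and to −0.34 without replicate 2. Both null libraries lay above both wild-type libraries for 10 members, where 16.1% of all genes did so, and below them for 4, where 25.9% did so. The SE of a member ran from 0.53 to 3.06 with a median of 1.94, so that differences of several-fold in a single gene were not detectable at this depth.

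The tightest estimates at 2-fold belonged to the strongest genes. The log2 difference was 0.67 ± 0.53 for klp-11, 0.74 ± 0.60 for che-10, 0.15 ± 0.61 for daf-19 and −0.09 ± 0.76 for dyf-7. None passed the test. Across the 41 genes, the 2-fold means of the genotypes correlated with a Pearson r of 0.84 on log2(CPM + 1), a description over genes, which are not independent replicates. Between single replicate libraries r was 0.77 in wild-type and 0.52 in null. Single libraries are not averaged, so these values cannot be compared with the one between group means.

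**Figure D3:**
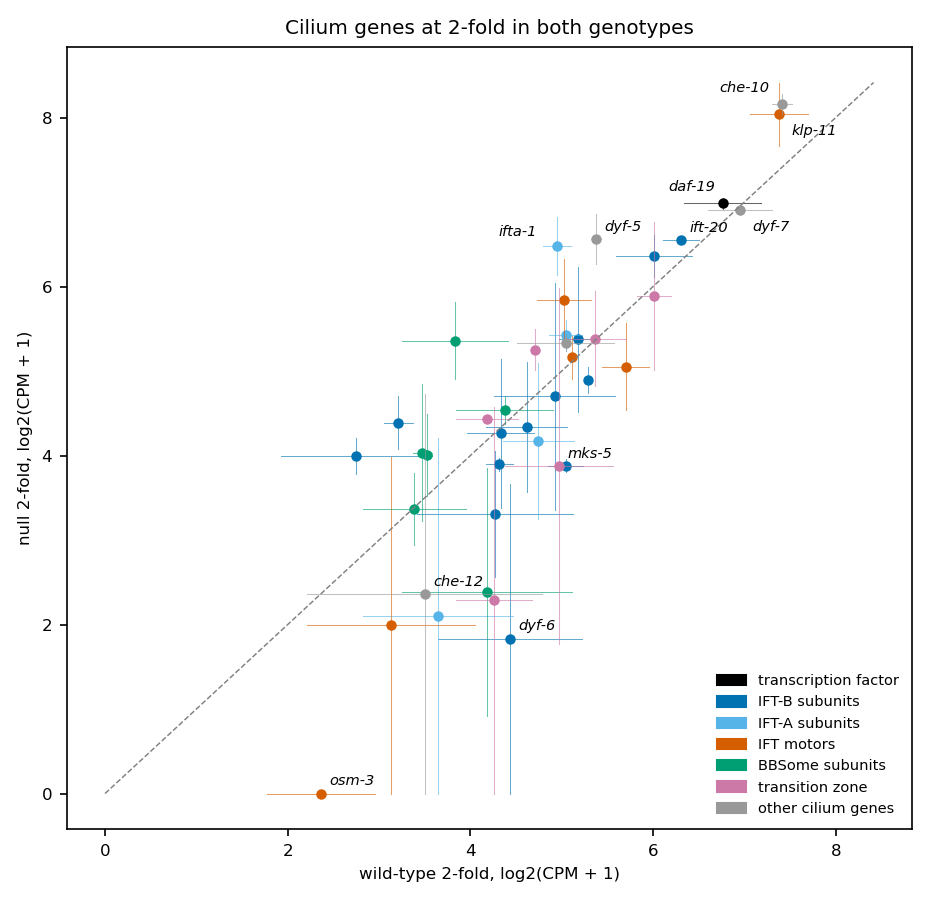
Each cilium gene at the 2-fold stage, wild-type (x axis) against null (y axis), as log2(CPM + 1); points are the means of the 2 libraries on that scale, coloured by role, thin lines span the 2 libraries, and the dashed line marks equal levels. The genes scatter about the dashed line, osm-3 is at 0 in null, and the low genes have the longest lines.

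The change between stages was also compared between genotypes. No member was called for a genotype difference in the step from 190-cell to bean, with 0.058% of all genes called higher and 0.0332% lower, or in the step from bean to 2-fold, with 0.0166% and 0.298%. At an unadjusted p under 0.05 there was 1 member higher for the first step (4.91% of all genes higher and 0.953% lower) and 1 higher and 1 lower for the second (1.42% and 5%). Reads in all 4 groups compared were found for 7 members in the first step and 14 in the second, so a missing call says little for most members. The smallest adjusted p was that of dyf-5 from bean to 2-fold, 0.130, and its difference between the genotypes at bean had an adjusted p of 0.175, which passed the threshold without wild-type 190-cell replicate 1 (0.0490) or wild-type 2-fold replicate 2 (0.0407). DESeq2 called dyf-5 in both steps. The wild-type bean reads behind these values came from fewer than 3 estimated molecules in all, so whether dyf-5 was absent or merely missed in null bean embryos was not detectable at this depth.

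A longer list of 39 other ciliary genes, of which 32 were tested, was set beside these genes. In wild-type, 5 of the 32 rose from bean to 2-fold, with 3.16% of all tested genes called higher. They were the transition zone genes mks-3, tmem-107 and ccep-290, the secreted protein gene dyf-4, and tub-1, the worm tubby. In null 6 of the 32 rose, with 4.48% of all tested genes called higher. They were mks-2, mks-3, ccep-290, dyf-4, dyf-19 and ift-139, the last an IFT-A gene. None fell in this step. From 190-cell to bean tbb-4, a ciliary tubulin, was called higher in wild-type, and dyf-4 was called lower. In null, ccep-290 and dyf-4 were called lower. Each fall started from a 190-cell mean below the floor and ended without reads, so a real decrease was not detectable at this depth. For dyf-4 the wild-type 190-cell mean was 7.175 CPM, with a floor of 8.06 CPM. The null 190-cell floor was 21.4 CPM, and the means of dyf-4 (4.77 CPM) and ccep-290 (3.93 CPM) came from replicate 2 alone. No gene of the list was called between the genotypes at any stage.

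Genes listed for sensory signalling and channels gave few reads. Of 15 such genes 5 had enough reads to be tested, and none was called in any comparison. The list summed to 33.7 to 147 CPM in the wild-type bean and 2-fold libraries and to 79.7 to 158 CPM in the null ones, with overlapping stages. Most of each sum was odr-4 and daf-25, which were also read at 190-cell, so the overlap mainly describes these genes. Their wild-type means were 34.2 and 23.1 CPM at bean and 43.2 and 53.2 CPM at 2-fold. osm-9, gpa-3, odr-1, lov-1 and pkd-2 had no reads in any library.

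Neuron and glia genes also had more reads at 2-fold. The 12 pan-neuronal genes summed to 268 and 287 CPM in wild-type bean and 680 and 612 CPM in wild-type 2-fold, and to 312 and 229 CPM in null bean and 571 and 543 CPM in null 2-fold. The 6 genes of sensory glia summed to 60.7 and 58.3 CPM and then 424 and 215 CPM in wild-type, and to 88.2 and 93.7 CPM and then 260 and 318 CPM in null. In both lists all 2-fold libraries lay above all bean libraries. From bean to 2-fold, 2 of the 11 pan-neuronal genes tested (unc-104 and ric-19) and 1 of the 5 glia genes tested (fig-1) rose in wild-type, and 1 (ric-4) and 2 (daf-6 and fig-1) rose in null. Of all tested genes, 3.16% were called higher and 1.19% lower in this step in wild-type, and 4.48% and 4.44% in null. Body wall muscle and epidermis genes had higher sums too, though not every gene did. In wild-type, hlh-1 of the muscle list and lin-26, elt-3 and nhr-25 of the epidermis list had lower means at 2-fold than at bean. The other genes of both lists had higher ones. Most of the muscle sum at bean was act-4, with a mean of 3745 CPM in wild-type. The 9 muscle genes summed to 4303 and 3772 CPM in wild-type bean and 8228 and 6379 CPM in wild-type 2-fold, and to 5484 and 5781 CPM and then 8259 and 7287 CPM in null. Of these, myo-3, unc-54 and lev-11 rose in wild-type and myo-3 and lev-11 in null. The 8 epidermis genes summed to 1188 and 1008 CPM and then 2165 and 1524 CPM in wild-type, and to 1203 and 1230 CPM and then 2133 and 2066 CPM in null. Of the 7 tested, nhr-25 fell in wild-type and dpy-7 rose in null. The 7 gut genes summed to 183 and 181 CPM and then 402 and 461 CPM in wild-type. In null they summed to 212 and 74.7 CPM and then 392 and 184 CPM, with overlapping stages. No gut gene was called in this step. The part of these lists in the change of the cilium genes was not tested.

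Maternal and yolk transcripts set the genotypes and some libraries apart. The 6 yolk protein (vit) genes, which are made in the adult gut, summed to 185 to 4278 CPM in the wild-type libraries, highest in 190-cell replicate 1 and 2-fold replicate 2 (3327 CPM), and to 0 to 40.8 CPM in null. All 6 were called lower in null averaged over the stages, and 4 at 2-fold, where 3.59% and 1.77% of all tested genes were called lower. The 10 maternal genes summed to 943 and 3237 CPM in wild-type 2-fold and to 27.7 and 63.3 CPM in null 2-fold. The null 2-fold libraries, with yolk sums of 0 and 6.17 CPM, had the largest cilium gene sums. Yolk sums differed with genotype, and a link between them and the cilium sums was not tested. A fit was also run with wild-type 190-cell replicate 1, wild-type 2-fold replicate 2 and the shallow null library left out together. It leaves 1 library each in wild-type 190-cell, wild-type 2-fold and null 190-cell, which is assumed to vary like the other groups. Its calls are therefore not given.

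**Figure D4:**
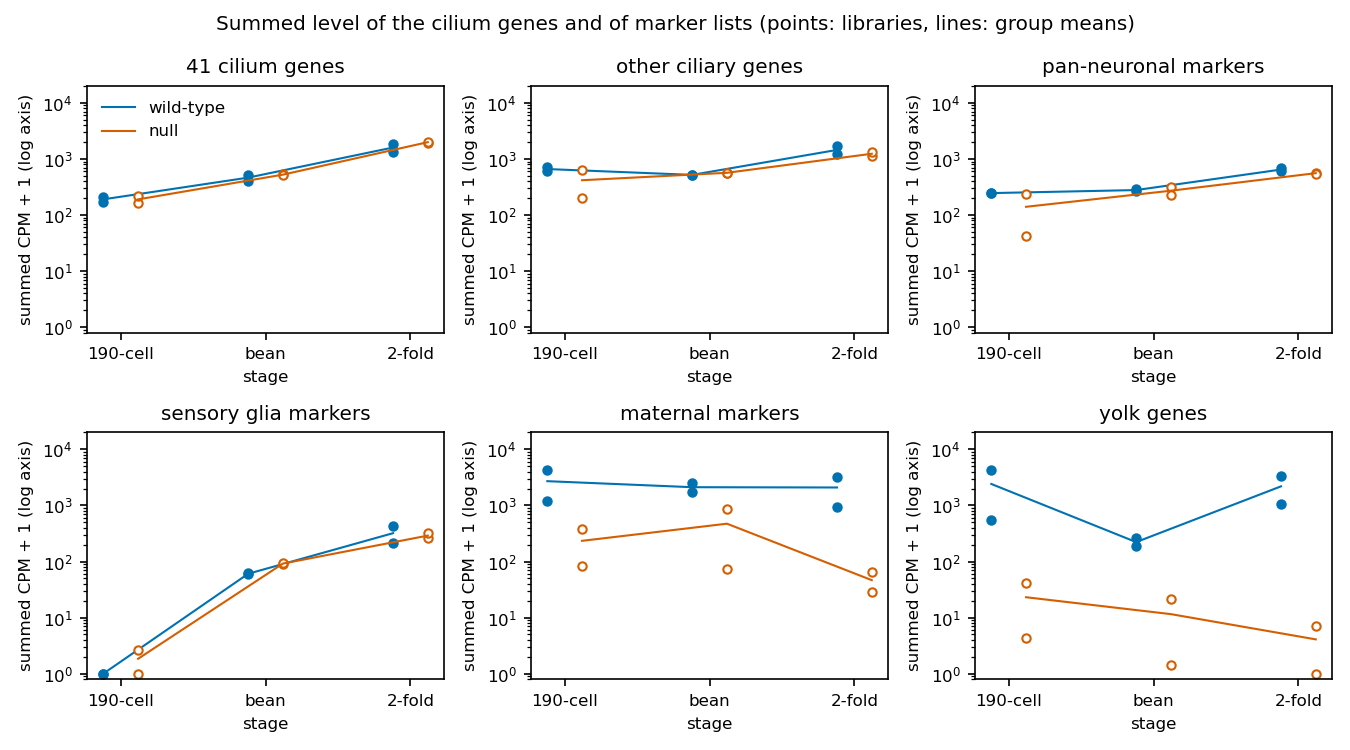
Summed CPM + 1 on a log axis for the 41 cilium genes, the other ciliary genes and 4 marker lists at 3 stages; filled points are wild-type libraries, open points are null libraries, and lines join group means. The cilium, neuron and glia sums are higher at 2-fold than at bean in both genotypes, while the yolk genes run from 185 to 4278 CPM in wild-type and reach at most 40.8 CPM in null.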

How the data were processed

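RNA of 12 whole-embryo samples was made into 3′ end libraries (QuantSeq). Per the study's methods and the submitters' processing notes, molecular identifiers were extracted, reads were trimmed and mapped to WBcel235 with STAR, duplicates were discarded and HTSeq counted reads per gene; versions, annotation release and strand setting are not given in the sources used here. The authors deposited raw counts, 1 table per sample. The counts behaved as 1.09 to 56.8 reads per molecule, which conflicts with the stated removal of duplicates, so they may be reads rather than molecules, and depth was also expressed in estimated molecules.

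Counts were fitted with edgeR 4.0.16 in R 4.3.3: TMM scaling, genes with at least 20 reads in total, 1 mean per group over all 12 libraries, a robust quasi-likelihood test and Benjamini-Hochberg adjustment over all 12062 genes, with 0.05 as the threshold. The test was checked on simulated data. DESeq2 1.42.0 and other alternatives were run. Symbols and positions came from the Ensembl WBcel235 annotation. All 41 genes are named by role, and those called or with a group mean of 20 CPM or more have values per library. Exons of 7 members overlap another gene on the same strand and those of 11 on the other. HTSeq's summary lines were left out: reads mapping to several places took 39.3% to 63.5% and reads outside genes 4.00% to 8.65%. The members and the other gene lists were chosen with earlier results of these data known. No promoter or seed-site search was run.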

Additional observations from a re-analysis of the deposited data

How the results depend on the processing

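Single genes rest on a few molecules. Counts of called members moved under the alternatives, and the cause was not tested. From bean to 2-fold in wild-type (5 called), there were 9 calls with RLE scaling, 9 without a filter, 10 with DESeq2, 16 with only the compared groups and 9 with counts scaled to molecules; in null (9 called) 15 with RLE, 14 without a filter and 19 with DESeq2. Over all genes, in either direction, the wild-type calls of this step (525, of them 381 higher) moved too. They numbered 746 with RLE scaling, 880 without a filter, 842 with DESeq2 and 836 with the replicate block. With only the compared groups they numbered 1543, and with molecule scaling 1190. The null calls (1075, of them 540 higher) numbered 1289 with RLE, 1545 without a filter and 1531 with DESeq2. The totals of the alternatives are not split by direction, so they give no share for members called higher. From 190-cell to bean in wild-type (2 called) there were 4 without a filter and 1 with molecule scaling, and in null (2 called) 1 with molecule scaling. The single call in the genotype comparisons under an alternative was dyf-5 or mksr-2: 1 at bean without a filter and with DESeq2, 1 averaged over stages with DESeq2, 1 for the difference of the 190-cell to bean step with DESeq2, and 1 for that of the bean to 2-fold step without a filter, with DESeq2 and with only the compared groups.

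Correlations between groups of the replicate 1 minus replicate 2 differences ran from −0.12 to 0.091. They showed no pairing by replicate number, but with few molecules per gene they cannot exclude one. With the replicate number as a block, calls numbered 8 from bean to 2-fold in wild-type, 1 at bean between genotypes and 1 for the difference of the bean to 2-fold step.

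Leaving out each library in turn gave 1 to 3 calls from 190-cell to bean and 1 to 11 from bean to 2-fold in wild-type, 0 to 2 and 2 to 15 in null, and 0 to 1 between genotypes at bean. In wild-type from bean to 2-fold the count was 1 without bean replicate 1 or 2-fold replicate 1, and in null it was 2 without wild-type 2-fold replicate 1 or null 2-fold replicate 2. Calls over all genes, in either direction, were also fewer in the omissions just named than with every library kept. Whether the ranges are particular to the cilium genes was not tested. mksr-2 in wild-type and dyf-5 in null kept their bean to 2-fold calls throughout. The log2 change of daf-19 from bean to 2-fold in wild-type ran from −0.06 (without 2-fold replicate 1, a change of sign) to 1.07. The median member change with molecule scaling was 3.80 in wild-type and 3.95 in null. Over all genes the genotype calls at bean numbered 8, against 62 with DESeq2 and 349 with only the compared groups. The joint omission of 3 libraries was chosen after seeing the data. The planned searches for X-box and seed sites were not run.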
